A study of Mus musculus with 32 samples.

Results

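The genes described here code for parts of the contractile cytoskeleton and for early targets of SRF and YAP. They were taken by symbol from the deposited table and are 9 of its 20560 genes. The contractile members are Acta2, Tagln, Cnn1, Myl9 and Tpm1. The matricellular and YAP reporter members are Ccn1, Ccn2, Ankrd1 and Thbs1. All 9 were found in the table.

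The RNA came from 3T3-L1, mouse preadipocytes in long-term culture that turn into fat-like cells when given hormones. Cells carried a scramble hairpin (shCtrl) or 1 of 2 short hairpin RNAs against Zbtb9, a zinc finger and BTB domain gene. Each of days 0, 3, 7 and 11 had 4 shCtrl libraries, 2 of shRNA 1 and 2 of shRNA 2. At day 0, confluent cells in every group received dexamethasone, isobutylmethylxanthine and insulin. Insulin alone was given from day 3 and complete medium without additions from day 7. The labels give neither a strain nor a clone, and they call the replicates biological without saying whether cultures were separate. The p-values may therefore measure technical spread only.

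Contractile genes build and regulate actin stress fibres. SRF, a transcription factor that binds the CArG box, turns them on when its partners of the MRTF family enter the nucleus as free actin monomer is used up. YAP and its relative TAZ (Wwtr1) enter the nucleus of spread, tense cells and act through TEAD factors on genes such as Ccn1, Ccn2 and Ankrd1. In preadipocytes, the loss of stress fibres and of nuclear YAP is known to accompany the rounding of cells that become adipocytes.

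Libraries held 22280321 to 31073716 reads in genes, rebuilt from the deposited values. At day 11 the arms did not overlap in depth, with 26486034 to 31073716 reads in control and 22839423 to 25511818 in knockdown libraries. The part of that gap in the day 11 results was not tested. Zbtb9 had 10.3 to 16.8 normalized reads on average in the controls of each day. Knockdown libraries had 61.9%, 50.6%, 42.7% and 54.5% of control at days 0, 3, 7 and 11. At day 11 shRNA 1 stood at 88.5% of control and shRNA 2 at 20.6%. In the library labelled shRNA 1 replicate 2 of day 11, Zbtb9 had 19.3 normalized reads, within the control range of 12.07 to 19.96, so its 17 reads do not show a knockdown. At day 3, shRNA 1 replicate 2 (7.41) and shRNA 2 replicate 1 (8.99) also lay within the control range, 6.35 to 12.6. The gene passed the test at day 7 (log2 change -0.35, SE 0.12, adjusted p = 0.0288, limma), and this call was lost without shRNA 1 replicate 1 (0.0647), shRNA 2 replicate 2 (0.0744), shCtrl replicate 2 (0.0556) or shCtrl replicate 3 (0.0789). It was not called at day 0 (-0.21, adjusted p = 0.271) or day 11 (-0.28, adjusted p = 0.173), and at day 3 it was under the filter on low values and was not tested. Of its exon bases, 84.4% are shared with other annotated genes, so its level is uncertain. A log2 change is a difference of the deposited log2 values throughout, and a gene is called where its adjusted p is under 0.05. Normalized reads are rebuilt reads divided by the size factor of the library. Reads are not independent molecules, and each SE and SD given comes from the spread between libraries.

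Promoter windows are shown for the members that the results turn on, from RefSeq (GRCm38.p6), 250 bases before to 50 bases after the start. The table holds such a window for Acta2, Cnn1, Myl9, Tpm1, Ccn1 and Ankrd1, 6 of the 9 members. Capitals mark the CArG box (CC, then 6 bases of A or T, then GG), the same box with 1 G or C among its 6 middle bases (a near box), and the TEAD core GGAATG on either strand.
Acta2 (chr19:34255324-34255623, minus strand): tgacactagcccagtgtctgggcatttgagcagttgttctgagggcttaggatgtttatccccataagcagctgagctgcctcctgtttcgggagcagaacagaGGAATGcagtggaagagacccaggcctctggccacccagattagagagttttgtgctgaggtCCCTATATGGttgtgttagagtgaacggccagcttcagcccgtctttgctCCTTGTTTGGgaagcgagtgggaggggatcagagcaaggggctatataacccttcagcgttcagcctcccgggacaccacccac
Myl9 (chr2:156775214-156775513, plus strand): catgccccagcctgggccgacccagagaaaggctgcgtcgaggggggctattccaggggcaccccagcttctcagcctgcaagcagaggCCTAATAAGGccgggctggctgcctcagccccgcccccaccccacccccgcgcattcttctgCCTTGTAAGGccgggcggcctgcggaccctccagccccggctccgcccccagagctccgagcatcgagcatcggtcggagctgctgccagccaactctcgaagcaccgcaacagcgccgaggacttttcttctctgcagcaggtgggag
Tpm1 (chr9:67049164-67049463, minus strand): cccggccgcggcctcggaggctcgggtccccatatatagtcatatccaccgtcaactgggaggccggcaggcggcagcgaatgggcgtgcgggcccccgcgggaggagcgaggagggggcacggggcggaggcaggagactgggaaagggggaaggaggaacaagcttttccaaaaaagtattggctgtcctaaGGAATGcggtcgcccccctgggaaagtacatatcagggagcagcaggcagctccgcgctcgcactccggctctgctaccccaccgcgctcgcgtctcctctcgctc
Ccn1 (chr3:145649936-145650235, minus strand): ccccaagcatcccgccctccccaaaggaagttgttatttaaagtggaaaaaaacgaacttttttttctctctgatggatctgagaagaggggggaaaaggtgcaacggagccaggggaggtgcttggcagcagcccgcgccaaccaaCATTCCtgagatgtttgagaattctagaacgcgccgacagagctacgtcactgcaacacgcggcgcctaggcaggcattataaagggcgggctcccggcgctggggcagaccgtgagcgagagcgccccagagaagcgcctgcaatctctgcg
Ankrd1 (chr19:36119795-36120094, minus strand): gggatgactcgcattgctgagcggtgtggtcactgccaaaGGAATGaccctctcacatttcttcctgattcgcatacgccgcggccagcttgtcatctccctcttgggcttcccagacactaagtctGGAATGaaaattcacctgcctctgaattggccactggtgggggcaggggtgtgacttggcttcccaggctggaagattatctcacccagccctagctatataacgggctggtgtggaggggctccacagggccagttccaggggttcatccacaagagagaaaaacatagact
Of 32851 windows of this length, 1.63% held a full CArG box, 14.7% the TEAD core and 8.5% a near box, with both strands searched. The last search was added after the windows were seen. Myl9 held the full box CCTAATAAGG, starting 161 bases before the start, and the near box CCTTGTAAGG at 99 bases before it. Acta2 held near boxes only, CCCTATATGG at 84 and CCTTGTTTGG at 34 bases before the start, and 1 TEAD core at 146 bases before it. Tpm1 held 1 TEAD core at 56 bases before the start and Ccn1 held 1 on the minus strand at 103 bases before it. Ankrd1 held 2 TEAD cores, at 210 and 123 bases before the start. The Cnn1 window held none of these motifs. A match is a description of the letters and shows no binding.

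Positions are from GENCODE M21 (GRCm38) and may differ from the build of the counting. Acta2 (ENSMUSG00000035783) lies on chromosome 19 from 34241090 to 34255590, minus strand. Tagln (ENSMUSG00000032085) lies on chromosome 9 from 45929619 to 45936058, minus strand. Of its 1988 exon bases, 1349 are also exon of Pcsk7 or Gm48529 on the opposite strand. Pcsk7 had 516 to 1104 and Gm48529 15 to 74 reads in a library, against 5 to 243 for Tagln. Whether the counting used strand is not given in the sources used here, so the Tagln level is uncertain. Cnn1 lies on chromosome 9 from 22099216 to 22109630 and Myl9 on chromosome 2 from 156775420 to 156781658, both on the plus strand. Tpm1 lies on chromosome 9 from 67022590 to 67049406, minus strand. Ccn1 lies on chromosome 3 from 145646976 to 145649981, minus strand. Ccn2 lies on chromosome 10 from 24595442 to 24598683, plus strand, and shares 665 of 2861 exon bases with Gm15270, which had at most 8 reads. Ankrd1 lies on chromosome 19 from 36111961 to 36120099, minus strand. Thbs1 lies on chromosome 2 from 118111876 to 118127133, plus strand. Acta2 has near-identical coding sequence in the other muscle actins. Of these, Actg2 had 1 to 311 reads and Acta1 at most 8 in any library, and how reads shared among them were assigned is uncertain.

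The members spanned a wide range before induction. Per kilobase of exon, day 0 control libraries had a mean of 9608 normalized reads of Acta2, the smooth muscle actin of stress fibres. Thbs1, a secreted matrix protein that binds latent TGF-beta, had 5641 and Tpm1, a tropomyosin that coats actin filaments, had 3775. Ccn1, a secreted matricellular protein, had 3595 and Myl9, a regulatory light chain of non-muscle and smooth muscle myosin, had 1635. Tagln, an actin-bundling SRF target also called SM22, had 82.9 and Ankrd1, a nuclear ankyrin repeat protein used as a YAP reporter, had 79.7. Ccn2, the connective tissue growth factor, had 23.3. Cnn1, smooth muscle calponin, had 2.02, never exceeded 22.3 normalized reads in any library, and passed the filter in no comparison. The other 8 members passed it in every comparison. The Tagln value rests on the full exon length and carries the doubt given above.

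The control time course asked how the members moved as cells differentiated. At day 3, 7 of the 8 members tested were lower than at day 0 and none was higher, with a median log2 change of -3.18. Of all genes tested, 76.6% were called. With every library rescaled to 1 common total, the median change of all genes at day 3 was -0.12. Of the calls, 50.1% were rises as deposited and 38.6% after that rescaling. The 7 falls were far past that shift. The summed normalized reads of 8 fibroblast markers moved with this, from 665273 to 708593 at day 0 and 259371 to 284618 at day 3 to 636706 to 726061 at day 11. Those of 8 defining smooth muscle markers went from 3158 to 3451 at day 0 to 943.6 to 1094 at day 3. They were then 2744 to 3203 at day 7, when Acta2 stood at 7.38% and Myl9 at 5.10% of day 0. At day 11 the smooth muscle sum was 2258 to 2772. The sums of 10 adipocyte markers rose in these controls, from 20074.5 to 20660.5 at day 0 to 27886 to 33261 at day 3. They were 50668 to 54917 at day 7 and 57058 to 67119 at day 11. The part of these 3 marker sets in the members' course was not tested. At day 7 all 8 were lower (69.1% of all genes called) and at day 11, 7 were lower (64.6% called).

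**Figure D1:**
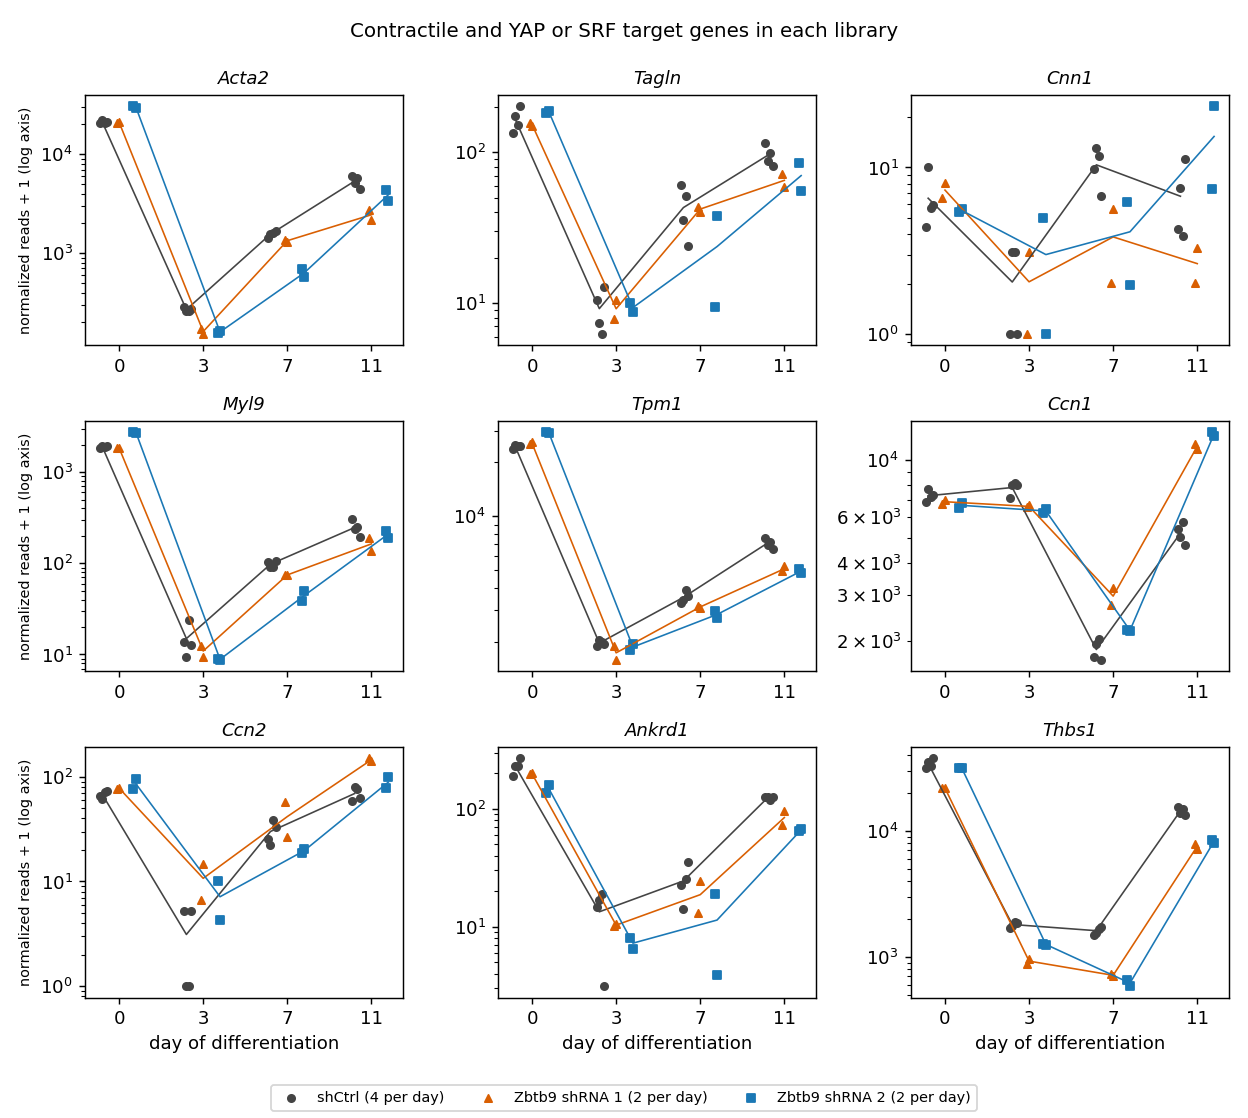
Normalized reads plus 1 (log axis) of each member in every library, by day. Points are libraries, with a separate marker for shCtrl (4 a day), shRNA 1 (2 a day) and shRNA 2 (2 a day), and lines join the means. Acta2 fell from a control mean of 21099 at day 0 to 267.9 at day 3, and Ccn1 kept its day 0 level until day 3.

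Acta2 and Myl9 fell furthest, Acta2 first on the deposited log2 scale and Myl9 first in normalized reads. For Myl9, control libraries had 1833, 1957, 1882 and 1929 normalized reads at day 0 and 12.6, 8.46, 23.0 and 11.7 at day 3. The day 3 mean was 136-fold below that of day 0. The log2 change on the deposited scale was -5.77 (SE 0.11, adjusted p = 2.24e-31). With voom on the rebuilt reads it was -7.13, since the deposited scale draws low values together. Acta2 had 20671, 22201, 20599.5 and 20922.5 normalized reads at day 0. At day 3 it had 283.0, 257.0, 258.5 and 273.2, which is 78.8-fold lower by the means (log2 change -6.03, SE 0.07, adjusted p = 1.36e-24, and -6.30 with voom). Tpm1 fell from 24483 ± 619 to 1966 ± 71.2 normalized reads (SD, n = 4), or 12.5-fold. The days did not overlap for these 3, nor for the other 4 members called, 7 of 8 where 71.2% of all genes did not.

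Tagln fell from 164.8 ± 29.2 to 8.19 ± 2.95 normalized reads (SD, n = 4) between days 0 and 3. Ankrd1 fell from 230.1 ± 31.7 to 12.4 ± 7.03 and Ccn2 from 66.8 ± 5.64 to 2.12 ± 2.44. Ccn2 was at 0 reads in 2 of the 4 day 3 libraries. Its log2 change of -1.86 on the deposited scale became -5.41 with voom. Thbs1 fell from 34255 ± 2760 to 1807 ± 84.9 normalized reads, or 19.0-fold.

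Ccn1 stood apart from the other members at day 3. Control libraries had 6863, 7724, 7157 and 7285 normalized reads at day 0 and 7109, 7967, 8138 and 8014 at day 3. The days overlapped, and the log2 change was 0.10 (SE 0.06, adjusted p = 0.158). Without shCtrl replicate 1 of day 3 it was 0.14 (adjusted p = 0.0426), and with rescaling it was -0.03. Ccn1 fell later, to 1743, 1951, 2035 and 1689 at day 7 (log2 change from day 3 of -2.0, SE 0.06, adjusted p = 7.2e-16).

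Between days 3 and 7, under insulin alone, 6 of 8 members rose and 2 fell, against 74.2% of all genes called. Acta2 rose by 2.38 on the log2 scale (SE 0.07), to 1422, 1559, 1589.6 and 1655 normalized reads. Myl9 rose by 1.78, Ccn2 by 1.08, Tagln by 1.07 and Tpm1 by 0.81. With voom on the rebuilt reads the rises were 4.19 for Ccn2, 2.84 for Myl9, 2.53 for Acta2, 2.29 for Tagln and 1.12 for Ankrd1, so the order depended on the scale. Ankrd1 rose by 0.42 (adjusted p = 0.00951), a call lost without shCtrl day 3 replicate 4 (log2 change 0.25, adjusted p = 0.0939) or day 7 replicate 4 (0.30, 0.0653). Thbs1 fell by 0.16 (adjusted p = 0.014), a call lost without shCtrl day 7 replicate 1 (0.0528) and with rescaling (0.0965). Ccn1 was the other that fell.

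After insulin was withdrawn, all 8 members rose between days 7 and 11, against 55.0% of all genes called. Thbs1 rose most, by 3.05 on the log2 scale (SE 0.06), from 1613 ± 105 to 14383 ± 1029 normalized reads (SD, n = 4). Acta2 rose by 1.71, Ankrd1 by 1.69, Ccn1 by 1.44 and Myl9 by 1.19. At day 11 the order against day 0 was mixed. Ccn2 was back at its starting level, with 68.2 ± 10.2 normalized reads (log2 change 0.02, SE 0.12, adjusted p = 0.918). Ccn1 stood at 71.8%, Tagln at 57.3% and Ankrd1 at 53.4% of day 0. Thbs1 stood at 42.0%, Tpm1 at 29.0%, Acta2 at 25.3% and Myl9 at 12.95%. Acta2, Myl9 and Tpm1, the contractile members with the highest starting levels, were the furthest below day 0.

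By day, the order of the control levels was day 0, 11, 7, 3 for Acta2, Myl9, Tpm1, Tagln and Ankrd1, with each step called. For Ccn2, days 0 and 11 did not differ beyond their spread. For Ccn1, days 0 and 3 did not, and the order was then day 11 and day 7. Thbs1 was also lowest at day 7, by the small step from day 3 given above, and its order was day 0, 11, 3 and 7.

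Knockdown was then compared with control on each day, as the design text states. At day 0, 0 of 8 members were called, against 3.25% of all genes (430 of 13216 by limma, and 2609 at an unadjusted p under 0.05). Leaving out any 1 control library (replicates 1 to 4) gave 129, 115, 111 and 157 genes, and leaving out shRNA 1 replicate 2 gave 250. Genes higher in knockdown made up 25.1% of the calls of the main fit, or 43.3% with rescaling. The count depended on how the hairpins were handled. With the hairpins as separate groups and a contrast on their mean, 6 members were called, and in 1 fit of all 32 libraries 3 were. In both fits, here and below, the error leaves out the difference between hairpins. The groups did not overlap for Tpm1 (log2 change 0.15), Ccn2 (0.19) and Thbs1 (-0.37), 3 of 8 members where 13.9% of all genes did not. The members had adjusted p from 0.15 to 0.903.

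**Figure D2:**
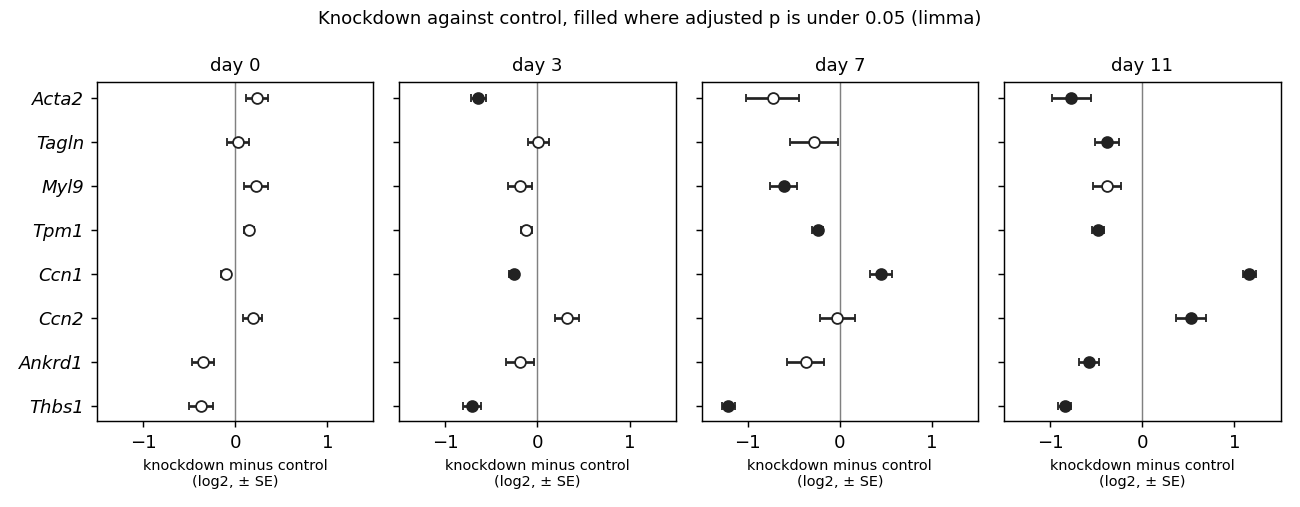
Log2 change of knockdown (n = 4) against shCtrl (n = 4) for the 8 members tested, with 1 panel per day. Bars are SE and filled points have an adjusted p under 0.05. At day 11, 7 points are filled, with Ccn1 at 1.16 and Ccn2 at 0.53 to the right and 5 members to the left.

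At day 3, 3 members were called and all 3 were lower, against 26.7% of all genes. At day 7, 4 were called, 3 lower and 1 higher, against 47.6%. At day 11, 7 were called, 5 lower and 2 higher, against 33.0%. With the bio rep number as a block, 1, 1 and 3 members were called at days 3, 7 and 11. In the same fits, 845, 4112 and 1652 of all genes were called. The arms did not overlap for 3, 5 and 5 of the 8 members on these days, and for 28.3%, 44.2% and 34.3% of all genes. Medians over the 8 members were -0.19, -0.32 and -0.43 on the log2 scale, and those of all genes lay between -0.01 and 0.01. Markers of adipocytes moved with the arms. The summed normalized reads of 10 adipocyte markers were 50668 to 54917 in control and 141576 to 214473 in knockdown libraries at day 7. At day 3 they were 27886 to 33261 against 45465 to 61212 and at day 11, 57058 to 67119 against 121901 to 148717. In bulk RNA, fewer cells with contractile RNA and less of it per cell cannot be told apart, and the part of the adipocyte share in these results was not tested.

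Acta2 was the contractile member with the plainest early difference. At day 3 the controls had 283.0, 257.0, 258.5 and 273.2 normalized reads and the knockdown libraries 169.2 and 151.3 for shRNA 1 and 153.9 and 163.6 for shRNA 2. The groups did not overlap, and knockdown stood at 59.5% of control (log2 change -0.64, SE 0.08, adjusted p = 6.12e-05). This call held under all 17 alternatives run. At day 11 the controls had 5997, 5121, 5774 and 4485 and the knockdown libraries 2712 and 2172 for shRNA 1 and 4386 and 3373 for shRNA 2. Again all knockdown libraries lay below all controls (log2 change -0.77, SE 0.21, adjusted p = 0.0237). That call was lost without shRNA 1 replicate 1 (0.0612), shCtrl replicate 1 (0.0614) or shCtrl replicate 3 (0.0585).

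At day 7 Acta2 fell short of the threshold with both hairpins in 1 group (log2 change -0.73, SE 0.29, adjusted p = 0.0845). Control libraries had 1422, 1559, 1589.6 and 1655 normalized reads. shRNA 1 libraries had 1366 and 1304, just below them, and shRNA 2 libraries had 686.0 and 573.8. With the hairpins as separate groups the mean of the hairpins was lower than control (adjusted p = 2.65e-11), and in 1 fit of all 32 libraries likewise (8.02e-08). Both fits leave the difference between hairpins out of the error (shRNA 1 at 85.8% and shRNA 2 at 40.5% of control). Their p-values therefore do not measure how well the hairpins match. With both hairpins in 1 group, Acta2 was called with no filter on low values (0.0296) and without limma's trend and robust moderation (0.0362). Without shRNA 1 replicate 1 the change was -0.91 (adjusted p = 0.0408).

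Tpm1 was lower in knockdown than in control libraries at days 7 and 11. Its day 11 values were 7619, 6962, 7199 and 6595 in control libraries. They were 4930 and 5272 for shRNA 1 and 5071 and 4831 for shRNA 2. The knockdown libraries lay together at 70.9% of control (log2 change -0.48, SE 0.06, adjusted p = 6.42e-05). At day 7 the change was -0.24 (SE 0.06, adjusted p = 0.00489), also with no overlap.

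Myl9 had 102.3, 91.3, 90.3 and 103.9 normalized reads in the day 7 controls. It had 73.1 and 74.2 with shRNA 1 and 37.8 and 48.7 with shRNA 2. All knockdown libraries were lower (log2 change -0.61, SE 0.15, adjusted p = 0.00346). At day 11 the arms overlapped and the change of -0.38 did not pass (adjusted p = 0.0806). It passed without shRNA 2 replicate 1 (-0.47, 0.0306) or shCtrl replicate 4 (-0.48, 0.0472), in 1 fit of all 32 libraries (0.00321) and with the hairpins as separate groups (0.0229). Tagln had 94.4 ± 15.0 normalized reads in control and 66.6 ± 13.5 in knockdown libraries at day 11 (SD, n = 4), with overlap. Its adjusted p of 0.0474 (log2 change -0.38) was lost in 6 of 8 fits that left out 1 library (0.0677 to 0.141). The libraries were shRNA 1 replicates 1 and 2, shRNA 2 replicate 2 and shCtrl replicates 1, 2 and 3. The call was also lost with no filter (0.0635), a stricter filter (0.0515) and voom (0.0561). Cnn1 was not tested. It had 5.77 to 12.2 normalized reads in control and 0.974 to 5.25 in knockdown libraries at day 7, with no overlap at these low counts. At day 11 it had 2.85 to 10.2 in control and 1.02 to 22.3 in knockdown libraries.

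Thbs1 was lower in knockdown at each of days 3, 7 and 11. At day 7 the controls had 1499, 1556, 1668 and 1729 normalized reads and the knockdown libraries 727.6 and 699.5 for shRNA 1 and 652.5 and 585.5 for shRNA 2. That is 41.3% of control (log2 change -1.21, SE 0.07, adjusted p = 3.37e-09). At day 3 it stood at 60.3% (log2 change -0.71, SE 0.10, adjusted p = 0.000705). At day 11 the controls had 15526, 13791, 14932 and 13280 and the knockdown libraries 7878, 7216, 8502 and 8015. No library of 1 arm reached the other on any of these days, and the day 11 change was -0.84 (SE 0.07, adjusted p = 4.52e-06).

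Ccn1 was lower at day 3 and higher at days 7 and 11. At day 3 it was lower in knockdown, with 6547, 6657, 6236 and 6446 normalized reads against 7109, 7967, 8138 and 8014 (log2 change -0.26, SE 0.05, adjusted p = 0.00109). At day 7 it was higher, with 2745 and 3215 for shRNA 1 and 2206 and 2191 for shRNA 2 against 1743, 1951, 2035 and 1689 (log2 change 0.45, SE 0.12, adjusted p = 0.00826). At day 11 it was 11500.5 and 11003.5 for shRNA 1 and 12747 and 12339 for shRNA 2 against 5383, 5038, 5737 and 4673. The arms did not overlap on these 3 days. The day 11 level was 228.5% of control (log2 change 1.16, SE 0.07, adjusted p = 7.35e-07) and 175.6% of the knockdown libraries' own day 0 level. This was the largest absolute day 11 change among the 8 members.

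Ccn2 was also higher at day 11, with 149.1 and 139.7 normalized reads for shRNA 1 and 76.6 and 98.8 for shRNA 2 against 57.8, 78.5, 75.1 and 61.3. 1 of the shRNA 2 libraries overlapped the controls. The day 11 change of 0.53 (SE 0.16, adjusted p = 0.0272) was lost without shRNA 1 replicate 1 (0.0768) or 2 (0.0566), or shCtrl replicate 1 (0.0808) or 4 (0.0731). At day 3, Ccn2 had 4.21, 0, 0 and 4.25 normalized reads in control and 5.68, 13.8, 8.99 and 3.29 in knockdown libraries. That difference did not pass (log2 change 0.32, SE 0.13, adjusted p = 0.0884). It passed with voom (2.27, adjusted p = 0.0416), in the fit of all 32 libraries (0.0468) and without shRNA 2 replicate 2 (0.0425). Ankrd1 went the other way at day 11. Its controls had 124.5, 124.3, 116.9 and 126.3 and the knockdown libraries 72.5, 94.3, 63.8 and 67.0, with no overlap (log2 change -0.58, SE 0.11, adjusted p = 0.00251). By these calls the YAP reporters split at day 11, with Ccn1 and Ccn2 higher and Ankrd1 lower. With the bio rep number as a block, Ccn1 kept its call and Ccn2 (0.189) and Ankrd1 (0.0577) did not. At day 0 the changes, not called, were 0.19 for Ccn2 and -0.35 for Ankrd1. Their day 11 differences did not depart from those of day 0 in the test given below (0.33, adjusted p = 0.32 for Ccn2, and -0.23, adjusted p = 0.531 for Ankrd1). In all, 4 members were called at day 11 without shRNA 1 replicate 1 or without shCtrl replicate 1. Without the library labelled shRNA 1 replicate 2, where Zbtb9 was at the control level, 5 members were called. The changes were then -0.61 for Acta2 (adjusted p = 0.0315), -0.50 for Tpm1, 1.19 for Ccn1, -0.67 for Ankrd1 and -0.80 for Thbs1. Tagln (-0.34, adjusted p = 0.0922) and Ccn2 (0.45, adjusted p = 0.0566) did not pass.

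**Figure D3:**
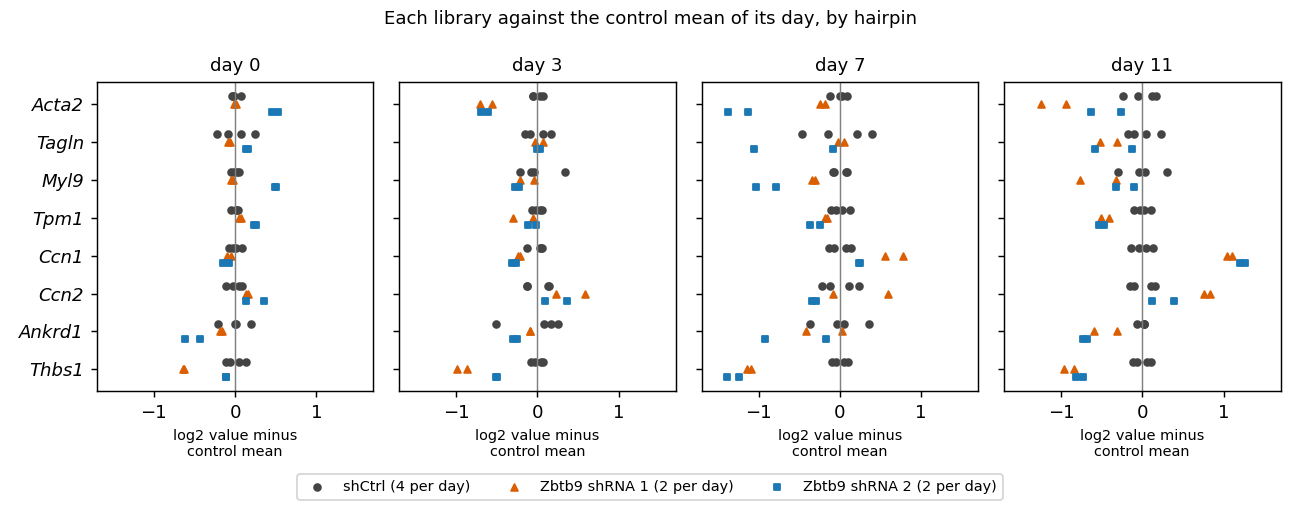
Log2 value of each library minus the mean of the 4 shCtrl libraries of its day, for the 8 members tested, with 1 panel per day. Markers are shCtrl, shRNA 1 and shRNA 2. For Acta2, shRNA 2 lies above shRNA 1 at day 0 (difference 0.49), below it at day 7 (-1.04) and above it at day 11 (0.64).

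The hairpins were compared with each other in a fit with 3 groups per day. Where a hairpin library was left out, that hairpin had 1 library and the other groups gave the spread. The adjusted p-values of such fits, here and below, are a rough check only. At day 0, 5 of 8 members differed between them, against 35.0% of all genes. At day 3, 1 differed against 19.6%, at day 7, 3 against 16.4% and at day 11, 2 against 22.0%. Genes higher in shRNA 2 made up 45.8% of the day 7 calls, or 61.9% with rescaling. At day 0, shRNA 2 was above shRNA 1 for Acta2 (log2 difference 0.49, SE 0.04, adjusted p = 1.48e-11), Myl9 (0.54, SE 0.05), Thbs1 (0.51, SE 0.08) and Tpm1 (0.19, SE 0.03). In these, shRNA 1 lay close to control for Acta2, Myl9 and Tpm1, at 99.7%, 97.1% and 104.3% of its mean. For Thbs1 it was shRNA 2 that lay closer, at 91.6% against 63.7% for shRNA 1. Ankrd1 was lower with shRNA 2 (-0.35, adjusted p = 0.046), a call lost when any 1 of the 4 hairpin libraries was left out (0.0592 to 0.271).

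Later the order of the hairpins turned for Acta2. At day 7 shRNA 2 stood at 40.5% of control and shRNA 1 at 85.8% (difference -1.04, SE 0.08, adjusted p = 4.83e-09). At day 11 they stood at 72.6% and 45.7% (difference 0.64, SE 0.18, adjusted p = 0.0399), a call lost without shRNA 1 replicate 2 (0.231) or shRNA 2 replicate 1 (0.146). Without either of those libraries 0 members differed between hairpins at day 11. Myl9 was lower with shRNA 2 at day 7 (-0.59, adjusted p = 0.0118), a call lost without shRNA 1 replicate 1 (0.0566) or 2 (0.087) or shRNA 2 replicate 1 (0.133), and with voom (0.0661). Ccn1 was higher with shRNA 1 at day 7, at 160.7% of control against 118.5% (difference -0.42, SE 0.08, adjusted p = 0.000775), a call lost without trend and robust moderation (0.0513). Thbs1 was lower with shRNA 1 at day 3, at 51.2% against 69.4% (difference 0.42, SE 0.07, adjusted p = 9.73e-06). Ccn2 was higher with shRNA 1 at day 11 (-0.54, adjusted p = 0.0261), a call lost without shRNA 1 replicate 1 (0.0902) or 2 (0.0784) or shRNA 2 replicate 1 (0.179). By their means, both hairpins lay below control at days 3, 7 and 11 for Acta2, Myl9, Tpm1, Ankrd1 and Thbs1. For Ccn1 both lay below control at day 3 and above it at days 7 and 11. For Tagln and Ccn2 they lay on opposite sides of control at day 7.

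Whether the knockdown difference itself changed after day 0 was tested over all 32 libraries. At day 3, 1 of 8 members was called, against 6.57% of all genes. The call was Tpm1 (-0.28, adjusted p = 0.0436), and it was lost in 11 of 16 fits that left out 1 library (up to 0.118, without shRNA 1 day 3 replicate 2). At day 7, 5 members were called, 4 lower and 1 higher, against 29.9%, and at day 11 the same number against 23.2%. Positive terms made up 56.2%, 56.0% and 53.6% of the calls on these days, or 42.4%, 40.7% and 40.1% with rescaling. Acta2 moved by -0.97 at day 7 (SE 0.29, adjusted p = 0.0114) and by -1.01 at day 11 (SE 0.29, adjusted p = 0.011). Ccn1 moved by 0.54 (SE 0.11, adjusted p = 0.000452) and by 1.25 (SE 0.11, adjusted p = 7.98e-10). Tpm1 moved by -0.39 and -0.63 (SE 0.08 each). Thbs1 moved by -0.84 at day 7 (SE 0.15, adjusted p = 9.76e-05) and Myl9 by -0.84 (SE 0.22, adjusted p = 0.00333). At day 11, Myl9 (-0.61, adjusted p = 0.04) lost its call in 10 of 16 such fits (up to 0.106, without shRNA 1 day 11 replicate 2). It also lost the call with no filter (0.0505) and with the bio rep number as a block (0.0503). Thbs1 (-0.46, adjusted p = 0.0269) lost it in 7 of 16 (up to 0.0691, without shRNA 2 day 0 replicate 1). The count of members at day 11 was then 3 in 7 of these fits, each leaving out a library of shRNA 2 or shCtrl at day 0, or of shRNA 1 or shCtrl at day 11.

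**Figure D4:**
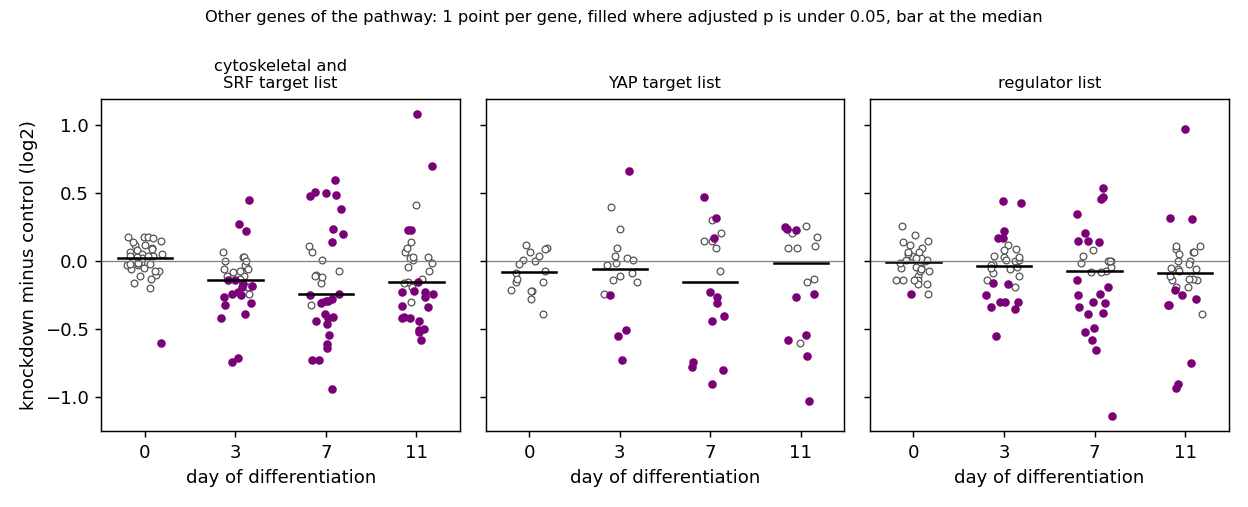
Log2 change of knockdown against shCtrl (n = 4 each) for the genes of 3 lists, by day. Each point is a gene, filled where its adjusted p is under 0.05, and the bar is the median of the list. The medians of the cytoskeletal and SRF target list at days 3, 7 and 11 were -0.14, -0.24 and -0.16.

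Other genes of these pathways were taken from 3 lists, described by counts with no test of the list. The cytoskeletal and SRF target list holds 37 genes, the YAP target list 19 and the list of regulators of SRF, YAP and TGF-beta signalling 33, all in the table. In the control time course, 27 of 36 cytoskeletal and SRF genes tested fell at day 3 and 4 rose, with a median log2 change of -0.63. Of all genes, 38.2% fell and 38.3% rose. Cnn2, a calponin of non-muscle cells, fell by 2.97 on the log2 scale and Actg2, the enteric smooth muscle actin, fell by 3.17. Junb, an immediate early gene, rose by 1.01. Mylk, the kinase of myosin light chains, was 1.20 above day 0 at day 7, and Lmod1, an actin filament nucleator, was 1.55 above it. Of 18 YAP targets tested, 9 fell and 7 rose at day 3. Amotl2, a feedback inhibitor of YAP, fell by 1.68 and Igfbp3, an IGF carrier, rose by 2.34.

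Over all genes tested in knockdown, 12.1% were lower and 14.6% higher at day 3, 22.6% and 24.9% at day 7, and 16.2% and 16.8% at day 11. In knockdown, 15 of 35 cytoskeletal and SRF genes were lower and 3 higher at day 3 (median log2 change -0.14). At day 7, 17 of 36 were lower and 9 higher (median -0.24), and at day 11, 16 were lower and 4 higher (median -0.16). With rescaling the split at day 7 was 22 lower and 7 higher. Cnn2 was lower by -0.74, -0.94 and -0.58 on the log2 scale at days 3, 7 and 11. Its normalized reads at day 7 were 1879.5 ± 117 against 3693 ± 163 in control (SD, n = 4). Flna, filamin A, which crosslinks actin, was lower at day 7 (-0.73, SE 0.06, adjusted p = 1.14e-07) and day 11 (-0.51, SE 0.06, adjusted p = 6.91e-05). Fos, an immediate early transcription factor, was lower at day 0 (-0.60, SE 0.07, adjusted p = 0.00178) and higher at day 3 (0.27, SE 0.08, adjusted p = 0.0201), day 7 (0.60, SE 0.10, adjusted p = 0.00017) and day 11 (0.70, SE 0.11, adjusted p = 0.000666). The day 3 difference did not pass without shCtrl replicate 1 (0.065) or 4 (0.0561). Egr1, another immediate early gene, was higher at day 7 (0.51, SE 0.06) and was not called on the other days. Junb was called on no day, with changes of -0.12 at day 7 and -0.16 at day 11. Smtn, the smooth muscle protein smoothelin, was higher at day 11 (1.08, SE 0.16, adjusted p = 0.000996), at 3008 ± 498 against 1379 ± 290 in control.

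Of 18 YAP targets tested, 4 were lower and 1 higher at day 3, 9 lower and 3 higher at day 7, and 6 lower and 3 higher at day 11. With rescaling, 9 were lower and 2 higher at day 7 and 6 lower and 1 higher at day 11. The medians were -0.06, -0.15 and -0.02 on the log2 scale. At day 3 the 5 calls among 18 genes were near the 26.7% of all genes. Axl, a receptor tyrosine kinase, was lower by -0.51, -0.90 and -1.03 on these days. Its day 11 level was 5700.4 ± 554 normalized reads under knockdown and 11859 ± 228 without it (SD, n = 4). Myof, a membrane repair protein, was lower at day 7 (-0.78, SE 0.05, adjusted p = 8.22e-09). Rbms3, an RNA-binding protein, was lower at day 7 (-0.80, SE 0.09) and day 11 (-0.70, SE 0.16). Gadd45a, a stress and growth arrest gene, was higher at day 3 (0.66, SE 0.05, adjusted p = 8.31e-07).

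Of 32 regulators tested, 9 were lower and 5 higher at day 3, 14 lower and 8 higher at day 7, and 8 lower and 3 higher at day 11. With rescaling, 15 were lower and 5 higher at day 7 and 8 lower and 2 higher at day 11. The 11 calls at day 11 were near the 33.0% of all genes. Srf itself was lower at day 3 (-0.34, SE 0.05, adjusted p = 0.000283), with 1324 ± 61.7 normalized reads against 1701 ± 82.7. Elk3, an ETS factor that partners SRF, was lower at day 3 (-0.55, SE 0.06). Tead4 was higher at day 3 (0.44, SE 0.06), and Tead2 was lower at day 7 (-0.65, SE 0.10) and day 11 (-0.75, SE 0.06). Both are DNA-binding partners of YAP. Tead1, of the same family, was higher at day 7 (0.47, SE 0.06, adjusted p = 1.83e-05). Tgfbr1, a TGF-beta receptor, was higher at day 7 (0.54, SE 0.06, adjusted p = 2.92e-06). Its differences at day 3 (0.43, adjusted p = 0.0267) and day 11 (0.32, adjusted p = 0.0417) did not pass without shRNA 1 replicate 1 (0.0813 and 0.0942) or shCtrl replicate 1 (0.0611 and 0.107), 3 (0.0593 and 0.102) or 4 (0.0651 and 0.0628), and at day 11 also without shRNA 1 replicate 2 (0.0862) or shCtrl replicate 2 (0.0727), with no filter (0.0554), with rescaling (0.0503) or without the moderation (0.0639). Vgll3, a cofactor of the TEAD factors, was lower at day 7 (-1.14, SE 0.08, adjusted p = 1.3e-08) and day 11 (-0.90, SE 0.09, adjusted p = 1.92e-05). Amot, which holds YAP at cell junctions, was lower at day 7 (-0.58, SE 0.07) and day 11 (-0.93, SE 0.08). Smad7, the inhibitory SMAD of TGF-beta signalling, was higher at day 7 (0.46, SE 0.08) and day 11 (0.97, SE 0.11, adjusted p = 8.37e-05). Yap1, named after its values were seen, was lower at days 3, 7 and 11 (-0.17, -0.31 and -0.25, adjusted p = 0.00502, 5.43e-05 and 0.00122). Wwtr1, likewise named after its values were seen, was higher at day 3 (0.17, adjusted p = 0.0204) and day 7 (0.14, adjusted p = 0.0281). At day 3 it no longer passed without shRNA 2 replicate 1 (0.0514) or shCtrl replicate 2 (0.0723) or 3 (0.0628), or without the moderation (0.0611). At day 7 it no longer passed without shRNA 1 replicate 1 (0.0512) or 2 (0.062), shRNA 2 replicate 2 (0.0617), or shCtrl replicate 1 (0.0763), 2 (0.0766) or 4 (0.0527), with rescaling (0.0917) or without the moderation (0.0505).

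Markers of other cell types were read in the same libraries. The summed normalized reads of the 8 fibroblast markers were lower in knockdown with no overlap at day 0 (559283 to 645772 against 665273 to 708593) and day 7 (404837 to 457756 against 486622 to 535612). The arms overlapped at day 3 (228071 to 300716 against 259371 to 284618) and day 11 (519635 to 651644 against 636706 to 726061). Of the 8 defining smooth muscle markers, Myocd, the master coactivator of that lineage, had at most 7 reads and Myh11 at most 65 in any library. The others reached 107 for Ldb3, 311 for Actg2, 582 for Lmod1, 635 for Des, 2264 for Synm and 3174 for Smtn. The list's sum was lower in knockdown at day 3 (772.3 to 922.3 against 943.6 to 1094). It was higher at day 7 (3348 to 3534 against 2744 to 3203) and day 11 (3565 to 4572 against 2258 to 2772). At day 11 Smtn alone had a mean of 3008 in knockdown and 1379 in control libraries, while Actg2 had 41.5 and 53.6 and Lmod1 244.6 and 243.0. Among the 6 skeletal muscle markers in the table, the highest value in any library was 22 reads. The cardiac marker Tnnt2 reached 95 reads. Among endothelial markers Kdr had at most 4, Cdh5 7, Tek 13 and Pecam1 41 reads, and their sum at day 7 was 24.1 to 48.7 in knockdown and 12.8 to 28.4 in control libraries. Among leukocyte markers Ptprc had at most 3, Itgam 7 and Csf1r 40 reads. Cd68, a macrophage marker, reached 506 reads, and the leukocyte sum at day 11 was 166.3 to 278.4 in control and 264.7 to 626.8 in knockdown libraries. The part of these marker levels in the members' results was not tested.

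The genes whose pattern over the 32 libraries was most like the mean of the contractile members were Aff3 (Pearson r 0.98), Pcyt1b (0.98), Lancl3 (0.97), Lrrk1 (0.97) and Plscr2 (0.97). For the matricellular and YAP reporter members they were Sgpp1 (0.96), Fgf7 (0.96), Ajuba (0.95), Akap10 (0.94) and Erbin (0.94). These are descriptions over libraries that share days and arms, with no test. Plscr2 had 182.4 normalized reads in control libraries at day 0 and 0.530 at day 3. Fgf7, a fibroblast growth factor, had 2804 in control and 1939.9 in knockdown libraries at day 11.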

How the data were processed

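Total RNA of 32 libraries was prepared with the Illumina TruSeq RNA kit, per the labels' protocols. The submitters' processing notes name TopHat2 2.1.0, Bowtie2 2.2.6, SAMtools 1.3.1 and HTSeq 0.6.1. The genome build, annotation, strand setting and normalization are not given in the sources used here. The authors deposited 1 table of log2 values for 20560 genes, from -1.56 to 17.99, with low values drawn together as in a regularized log. Inverting that transform gave values within 0.1 of a whole read for 95.86% of entries, where chance gives 20%, and for 87.86% of genes in all 32 libraries.

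The tests were run on the deposited log2 values with limma 3.58.1 in R 4.3.3 (trend and robust), on genes with 2 to the power of the value of at least 10 in at least 4 libraries, with Benjamini-Hochberg adjustment over all genes tested and a threshold of 0.05. The 16 comparisons were knockdown against control and hairpin against hairpin on each day, 5 between control days, and 3 of the knockdown difference against that of day 0. Fits of a day used that day's libraries, those of time the 16 control libraries, and the last all 32. The test was also run on simulated counts, with a log2 change of 1 either way in genes above a low-read limit. Both hairpins had the same mean there. The test recovered 91.5%, 94.0%, 92.5% and 92.5% of changed genes for knockdown at days 0, 3, 7 and 11, with 13220, 13138, 13300 and 13298 genes tested. Of its calls there, 8.04%, 4.57%, 8.91% and 6.09% were false, above 5% on 3 of the 4 days. These rates do not carry over to smaller changes or to genes that differ between hairpins. Alternatives changed the filter, scaling, pseudocount, moderation, groups and libraries, or used voom on rebuilt reads. All members, Zbtb9, up to 3 rises and 3 falls per pathway list and comparison, and 5 genes of most similar pattern per member group were named. The members and lists were chosen with earlier results of these data known.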

Additional observations from a re-analysis of the deposited data

Results flagged for a closer look

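Among 72 groups of 4 libraries, 4 held a library far from the other 3 by Dixon's 95% limit, and chance alone gives about 1 in 20. Tagln at day 7 had a log2 value of 4.4 in shRNA 2 replicate 1, with the others from 5.38 to 5.51. Ccn1 at day 3 had 12.78 in shCtrl replicate 1, with the others from 12.94 to 12.97. Ccn2 at day 0 had 6.14 in shRNA 2 replicate 2, with the others from 5.92 to 5.95. Ankrd1 at day 11 had 6.58 in shCtrl replicate 3, with the others from 6.66 to 6.67.

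Differences between the hairpins that passed limma's test, as shRNA 2 minus shRNA 1 in log2, came at every day. At day 0 they were 0.49 for Acta2, 0.54 for Myl9, 0.19 for Tpm1, -0.35 for Ankrd1 and 0.51 for Thbs1. At day 3 Thbs1 differed by 0.42. At day 7 Acta2 differed by -1.04, Myl9 by -0.59 and Ccn1 by -0.42. At day 11 Acta2 differed by 0.64 and Ccn2 by -0.54.

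Knockdown differences that departed from that of day 0 were tested by an interaction term. The departure at day 3 was -0.28 for Tpm1. At day 7 it was -0.97 for Acta2, -0.84 for Myl9, -0.39 for Tpm1, 0.54 for Ccn1 and -0.84 for Thbs1. At day 11 it was -1.01 for Acta2, -0.61 for Myl9, -0.63 for Tpm1, 1.25 for Ccn1 and -0.46 for Thbs1. The calls among these that were lost when 1 library was left out are given with the results.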

How the results depend on the processing

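A pseudocount of 1 changed no call or direction in 128 values of the members. For knockdown at day 0, 261 genes were called without trend and robust moderation, 2423 (3 members) in 1 fit of all 32 libraries and 3340 (6 members) with separate hairpins. The 32-library fit called 5 members at day 3 and 6755 genes at day 11. Separate hairpins gave 5311 genes at day 3, and 2484 (4 members) and 4865 genes for the departure from day 0 at days 3 and 11. At day 3 that departure was called for 0 members without the filter or the moderation and 2 with rescaling. Between hairpins at day 3, 1710 genes were called without the filter and 1454 without the moderation, and at day 7, 1035 without it. The causes were not tested.

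The bio rep number was not taken to pair the libraries, since not every correlation of same-numbered deviations was over 0.1 on any day. They were 0.014 to 0.077 at day 0, 0.003 to 0.096 at day 3, -0.003 to 0.05 at day 7 and 0.004 to 0.222 at day 11, where 5 of 6 were over 0.1. With 2 libraries per hairpin, the value between the hairpins is the same for both replicate numbers (0.102 at day 11) and was counted for each. Libraries with unlike numbers were not compared. Whether equal numbers share a source is therefore unsettled, above all at day 11. With the replicate block, knockdown gave 0, 845, 4112 and 1652 genes at days 0, 3, 7 and 11, with 1 member at day 3, 1 at day 7 and 3 at day 11, and 0 members for the departure at day 3. Under it Ccn2 at day 7 was 0.14. At day 3 the adjusted p was 0.0746 for Ccn1 and 0.0546 for Thbs1, and at day 7, 0.0647 for Myl9, 0.163 for Tpm1 and 0.054 for Ccn1. At day 11 it was 0.0853 for Acta2, 0.0859 for Tagln, 0.189 for Ccn2 and 0.0577 for Ankrd1. The cytoskeletal and SRF list then had 3 calls at day 3 and 11 at day 11, the YAP target list 3 and 3, and the regulators 3, 14 and 5 at days 3, 7 and 11. Yap1 was not called at day 3 (0.132) or day 11 (0.0667), and Wwtr1 was not at day 3 (0.156) or day 7 (0.086). Likewise not called were Cnn2 at day 11 (0.0725), Fos at day 0 (0.364) and day 3 (0.0965), and Tgfbr1 at day 3 (0.182) and day 11 (0.225).

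Leaving out 1 library gave 111 to 562 genes for knockdown at day 0, and 4 to 8 members at day 11. Between hairpins it gave 1633 to 2329 genes and 1 to 2 members at day 3, 1003 to 1492 genes at day 7, and 1479 to 2928 genes and 0 to 2 members at day 11. The lowest came without shRNA 1 replicate 1, 2 and 2. For the departure from day 0 it gave 0 to 1 members at day 3 and 3 to 5 at day 11. Signs turned among uncalled values. For knockdown these were Tagln at day 0 (-0.04 to 0.12) and day 3 (-0.04 to 0.07) and Ccn2 at day 7 (-0.24 to 0.08). Between hairpins they were Ccn2 at day 0 (-0.02 to 0.21), Acta2 (-0.09 to 0.06), Tagln (-0.06 to 0.05) and Tpm1 (-0.02 to 0.23) at day 3, Ankrd1 at day 7 (-0.73 to 0.02), and Tagln (-0.17 to 0.29) and Tpm1 (-0.09 to 0.01) at day 11. Others were Ccn2 at day 11 against day 0 (-0.03 to 0.07) and the departures of Tagln (-0.10 to 0.06) and Ankrd1 (-0.01 to 0.24) at day 3 and Ankrd1 at day 7 (-0.15 to 0.17). With voom, Tagln between hairpins at day 3 was 0.04 and its departure 0.03. With rescaling, Ccn1 at day 3 and Ccn2 at day 11 were -0.03 against day 0. The YAP target list had 8 calls at day 3 in the 32-library fit and 10 with separate hairpins, and the regulators 21 at day 11 in the former. For 75 of 86 values of named pathway genes, checked under alternatives added after seeing the data, no call changed. Depth limits Cnn1, Ccn2, Tagln, Ankrd1 and Myl9, which had at most 22 reads in any library at day 3.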
